A study of Homo sapiens with 8 samples.

Results

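Tight junctions were examined through 9 genes, taken by symbol from a table of 34415 gene symbols: the claudins CLDN1, CLDN4, CLDN7 and CLDN12, the MARVEL protein gene OCLN, the adhesion gene F11R, and the plaque genes TJP1, TJP3 and CGN. All 9 had enough counts to be tested, among 13572 tested genes. The RNA came from HaCaT cells, an immortalized line of human epidermal keratinocytes at passages 21 to 33, grown in RPMI-1640 with fetal bovine serum. Every culture spent 96 h at 35 mM glucose, against 5.5 mM in the basal medium, and was transfected for 48 h. The small interfering RNA (siRNA) of 4 cultures was directed against ETV4, an ETS-family transcription factor (siETV4), and the other 4 cultures received the negative control siNC. The submitters call the cultures independent biological replicates. Both groups share the high glucose, the transfection and the single cell line, and per the labels neither normal glucose nor a mannitol osmotic control was sequenced, so every comparison is between siRNAs at high glucose.

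Tight junctions seal the space between neighbouring epithelial cells. Claudins form the strands that cross this space and set which ions and solutes pass, occludin and the junctional adhesion molecules accompany them in the membrane, and the zonula occludens proteins and cingulin tie the strands to actin and to signalling proteins. In the epidermis they lie in the granular layer, where claudin-1 is needed to hold back water loss in mice.

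The libraries held between 35057643 and 41657753 counts, so 1 CPM, the count scaled to a common library total with TMM factors that correct for composition, stood for about 40.1 counts. ETV4 itself averaged 2.61 ± 0.547 CPM in siETV4 and 28.2 ± 5.64 CPM in siNC (SD, n = 4 each), and its groups did not overlap. It stood at 3.10, 2.71, 1.83 and 2.80 CPM in siETV4 replicates 1 to 4. In siNC replicates 1 to 4 it stood at 32.0, 29.7, 31.1 and 19.8 CPM, lowest in replicate 4. The library labelled siNC replicate 4 went against the other siNC libraries. Across genes, its deviation from the mean of all libraries correlated with transcript GC content at Spearman's rho -0.60, against 0.55, 0.52 and 0.63 in siNC replicates 1 to 3 and -0.64, 0.20, -0.57 and 0.02 in siETV4 replicates 1 to 4. These are descriptions over genes of the same library and carry no test. A chi-square statistic per degree of freedom, lower where the counts of a pair of libraries were more alike, also described them. For siNC replicate 4 it was 69.5, 84.5 and 89.8 with siNC replicates 1 to 3. With siETV4 replicates 1 to 4 it was 15.7, 70.9, 30.3 and 40.4. For siETV4 replicate 2 it was 45.1, 32.6 and 34.0 with siETV4 replicates 1, 3 and 4. With siNC replicates 1 to 4 it was 45.9, 19.6, 29.8 and 70.9. The 7 keratinocyte markers examined, KRT5 and KRT14 among them, were all tested and summed to 1185 to 1297 FPKM in siETV4 and 1210 to 1387 FPKM in siNC, where FPKM scales the count by gene length and library total. Of 6 fibroblast markers, 2 were tested and the list summed to 0.557 to 0.818 FPKM in siETV4 and 0.521 to 1.04 FPKM in siNC. Of 4 melanocyte markers 1 was tested, with sums of 0.533 to 0.957 FPKM in siETV4 and 0.551 to 1.03 FPKM in siNC. The leukocyte marker PTPRC was at 0 in every library and the 4 leukocyte markers, nearly all of them CD68, summed to 12.9 to 14.5 FPKM in siETV4 and 9.93 to 14.04 FPKM in siNC. The 4 endothelial markers, nearly all CDH5, summed to 3.77 to 5.28 FPKM in siETV4 and 3.31 to 4.22 FPKM in siNC.

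The first question was which tight junction genes these keratinocytes used. On the per-length scale CLDN7 led by a wide margin, at 420 ± 26.5 FPKM in siETV4 and 400 ± 42.2 FPKM in siNC (SD, n = 4 each). CLDN7 encodes a claudin that also sits along the lateral membrane and binds the adhesion protein EPCAM. Next came CLDN1, F11R and CLDN4. CLDN1 averaged 118 ± 16 FPKM in siETV4 and 85.6 ± 14.3 FPKM in siNC. F11R, which encodes the junctional adhesion molecule JAM-A, averaged 94.7 ± 6.45 FPKM in siETV4 and 90.3 ± 4.58 FPKM in siNC. CLDN4, a sealing claudin, averaged 76.5 ± 6.82 FPKM in siETV4 and 89.1 ± 7.32 FPKM in siNC. The order of the mean levels of these 3 genes differed between the groups, but single libraries did not all follow it. In siETV4 the ranges of CLDN1 and F11R overlapped and that of CLDN4 lay below F11R. In siNC the means of F11R, CLDN4 and CLDN1 followed each other with overlapping ranges. Yet siNC replicate 4 had the order of the siETV4 means, with CLDN1 at 106, F11R at 88.6 and CLDN4 at 79.3 FPKM. In siETV4 replicate 2, F11R (102 FPKM) lay above CLDN1 (94.6 FPKM).

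The remaining members were far lower. TJP1, the gene of the scaffold ZO-1, averaged 11 ± 2.06 FPKM in siETV4 and 10.1 ± 2.99 FPKM in siNC. CLDN12, a claudin linked to calcium passage in intestinal epithelium, averaged 6.41 ± 1.67 FPKM in siETV4 and 5.81 ± 2.15 FPKM in siNC. CGN, the cingulin gene, averaged 6.02 ± 0.577 FPKM in siETV4 and 6.42 ± 0.677 FPKM in siNC. TJP3, the gene of the scaffold ZO-3, averaged 4.87 ± 0.350 FPKM in siETV4 and 5.11 ± 0.971 FPKM in siNC. OCLN, the occludin gene, was the lowest of the 9 at 3.13 ± 0.396 FPKM in siETV4 and 2.26 ± 0.695 FPKM in siNC. CLDN12 had a range that overlapped those of TJP1, CGN and TJP3 in both groups, and CGN and TJP3 overlapped in siNC. The mean FPKM of CLDN7 was 134 times that of OCLN in siETV4 and 177 times in siNC. These are ratios of group means, and their difference was not tested.

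The second question was whether the members differed between the siRNAs. With edgeR's quasi-likelihood test, adjusted over all tested genes by the Benjamini-Hochberg method, none of the 9 passed the threshold of 0.05, while 0.236% of all tested genes did. At an unadjusted p under 0.05, edgeR gave 3 members against 12.6% of all tested genes. CLDN1 and OCLN were the 2 higher in siETV4, where 5.8% of genes were higher, and CLDN4 was the 1 lower, where 6.79% of genes were lower. DESeq2 and limma-voom also called 0 of the 9 after adjustment, where they called 1.64% and 0.309% of all tested genes, and at an unadjusted p under 0.05 they gave 2 and 3 members against 13.6% and 13.4% of genes. The median log2 fold change (siETV4 over siNC) was 0.02 over the 9 members and -0.01 over all tested genes, with 6 members positive and 3 negative. In CPM no member had groups that did not overlap, where 6.55% of all tested genes did. Bulk RNA cannot tell fewer cells expressing a gene from less RNA per cell.

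**Figure D1:**
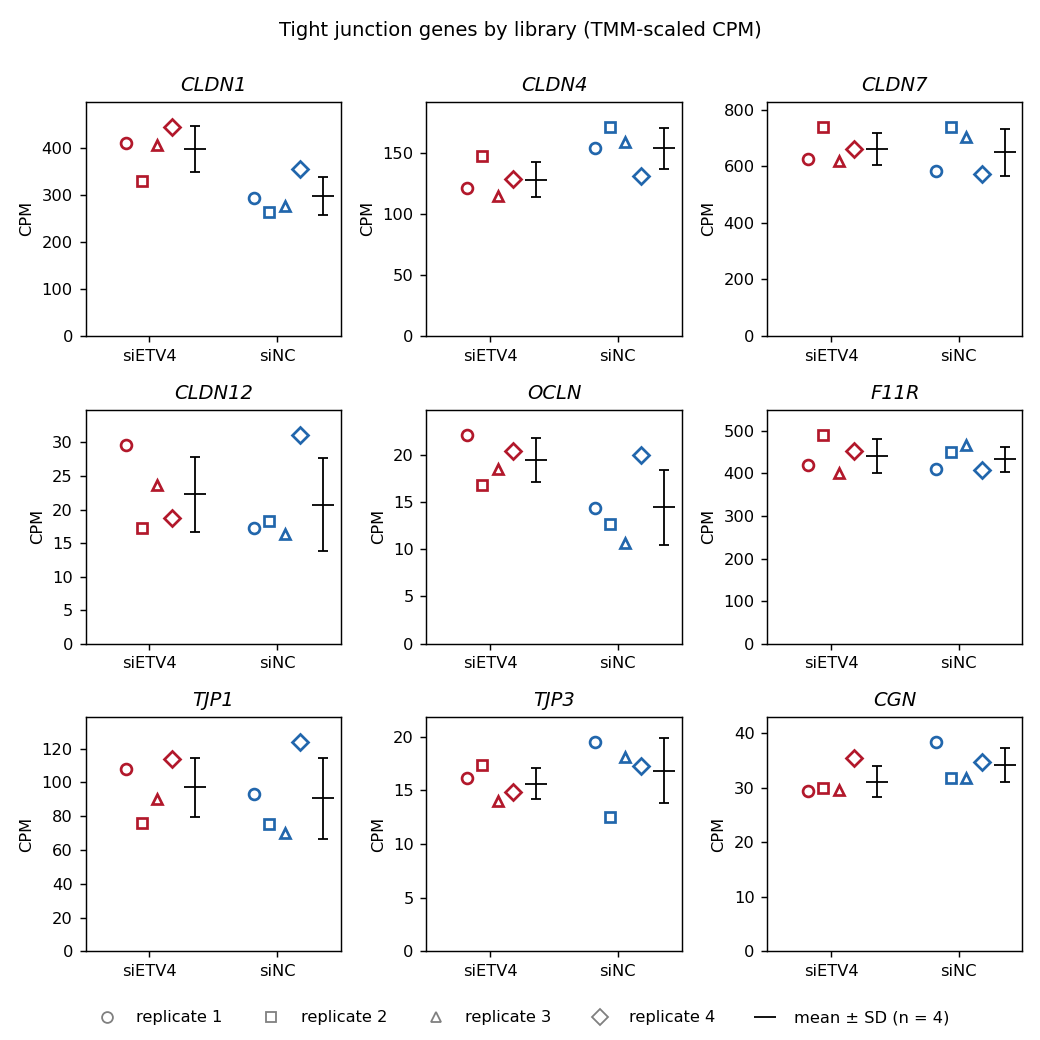
Each panel shows CPM (y axis, from 0) of 1 tight junction gene in the 4 siETV4 and 4 siNC libraries (x axis), with the replicate number as the marker shape and the mean ± SD beside the points. CLDN1 and OCLN were higher on average and CLDN4 lower in siETV4, and in all 9 panels the groups overlap.

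CLDN1 had the smallest p of the members. It stood at 412, 331, 407 and 446 CPM in siETV4 replicates 1 to 4, against 295, 266, 278 and 357 CPM in siNC replicates 1 to 4. The groups met at siETV4 replicate 2 and siNC replicate 4, and the other 3 siETV4 libraries lay above every siNC library. The log2 fold change was 0.42 (SE 0.12, 95% interval 0.16 to 0.68), a fold of 1.33, with an edgeR adjusted p of 0.235. CLDN1 ranked 271st by p among the tested genes. It lies on chromosome 3 from 190305707 to 190322446 (GRCh38.p14), where its span meets that of CLDN16. With a strand setting not given in the sources used here, reads of overlapping genes cannot be told apart.

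OCLN had a positive difference as well. It stood at 22.1, 16.8, 18.5 and 20.4 CPM in siETV4, against 14.3, 12.7, 10.7 and 19.98 CPM in siNC. Without siNC replicate 4 every siETV4 library would lie above every siNC library. The log2 fold change was 0.43 (SE 0.19, 95% interval 0.02 to 0.84), a fold of 1.35, with an edgeR adjusted p of 0.388. OCLN lies on chromosome 5 from 69492547 to 69558104. Its pseudogene copy OCLNP1 is not analysed here, and how reads shared by both were counted is unknown, so the OCLN values carry that uncertainty.

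CLDN4 had a negative difference. It stood at 121, 147, 114 and 129 CPM in siETV4, against 154, 171, 159 and 131 CPM in siNC, so siETV4 replicate 2 and siNC replicate 4 again lay nearest to the other group. The log2 fold change was -0.26 (SE 0.11, 95% interval -0.50 to -0.02), a fold of 0.832, with an edgeR adjusted p of 0.373. CLDN4 lies on chromosome 7 from 73830996 to 73832690 and meets no other gene of the RefSeq table.

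The promoter windows of these 3 genes are shown because ETV4 belongs to a family whose members bind a GGAA core, and because they are the members with an unadjusted p under 0.05. Each runs 5′ to 3′ on the gene's strand from 250 bases before to 50 after the RefSeq start (GRCh38.p14), at chr3:190322397-190322696 (minus strand) for CLDN1, chr5:69492297-69492596 (plus strand) for OCLN and chr7:73830746-73831045 (plus strand) for CLDN4. Capitals mark GGAA or its reverse complement TTCC.
CLDN1: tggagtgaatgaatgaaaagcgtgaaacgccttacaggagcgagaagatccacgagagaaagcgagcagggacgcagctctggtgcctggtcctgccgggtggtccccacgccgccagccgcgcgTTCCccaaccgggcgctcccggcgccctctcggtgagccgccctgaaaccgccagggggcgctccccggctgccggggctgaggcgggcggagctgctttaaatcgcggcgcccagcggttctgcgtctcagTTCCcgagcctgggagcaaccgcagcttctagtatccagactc
OCLN: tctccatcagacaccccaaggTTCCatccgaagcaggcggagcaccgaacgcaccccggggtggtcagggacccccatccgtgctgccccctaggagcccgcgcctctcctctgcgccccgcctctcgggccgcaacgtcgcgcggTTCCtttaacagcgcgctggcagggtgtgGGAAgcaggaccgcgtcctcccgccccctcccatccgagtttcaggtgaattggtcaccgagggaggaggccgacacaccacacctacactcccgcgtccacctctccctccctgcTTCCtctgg
CLDN4: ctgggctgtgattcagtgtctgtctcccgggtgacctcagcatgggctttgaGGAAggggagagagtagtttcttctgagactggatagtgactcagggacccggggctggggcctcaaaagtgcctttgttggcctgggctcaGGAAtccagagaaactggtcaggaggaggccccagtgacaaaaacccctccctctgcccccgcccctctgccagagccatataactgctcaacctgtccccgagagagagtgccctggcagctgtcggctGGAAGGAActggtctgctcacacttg

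The CLDN1 window held 2 GGAA cores over both strands, and those shown for OCLN and CLDN4 held 4 each. OCLN has a further RefSeq start, whose window overlaps the one shown and held 5. RefSeq windows were found for 8 of the 9 members, 14 windows in all since some genes have several starts, and all 14 held GGAA. So did 95.5% of the 35116 windows in the table, with a median of 3 matches. The longer motif AGGAAG, which contains GGAA, was in 9 of the 14 windows, those shown for OCLN and CLDN4 among them, and in 33.6% of all windows. The overlapping OCLN windows hold the same AGGAAG match and some genes have several windows, so the 14 are not separate genes. The motif CCGGAA was in 1 of the 14, a CLDN7 window, and in 17.2% of all windows. These matches describe letters in short windows and show neither a bound site nor its absence.

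On the CPM scale, the intervals of the other claudins and of the adhesion gene included 0. CLDN7 stood at 625, 740, 619 and 661 CPM in siETV4, against 585, 739, 704 and 572 CPM in siNC. The 2 groups covered nearly the same range, and the log2 fold change was 0.02 with a 95% interval of -0.21 to 0.26 (a fold of 0.865 to 1.20). That interval holds for this scale only. With the trends over GC content and gene length taken out, as described below, it was 0.01 to 0.29. F11R stood at 419, 491, 402 and 452 CPM in siETV4, against 410, 449, 467 and 408 CPM in siNC. Its log2 fold change was also 0.02, with a 95% interval of -0.17 to 0.22 (a fold of 0.886 to 1.17). CLDN12 was scattered in both groups, at 29.6, 17.2, 23.6 and 18.7 CPM in siETV4 and 17.2, 18.3, 16.3 and 31.2 CPM in siNC. Its highest siNC value, in replicate 4, lay above every siETV4 library while the other 3 siNC libraries lay near the lowest siETV4 values, and the log2 fold change of 0.10 had a 95% interval of -0.41 to 0.61.

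The plaque genes gave intervals that all included 0. TJP1 stood at 108, 75.9, 90.0 and 114 CPM in siETV4, against 92.8, 75.5, 70.3 and 124 CPM in siNC (log2 fold change 0.10, 95% interval -0.30 to 0.50). As for CLDN12, the top value was siNC replicate 4. TJP3 stood at 16.2, 17.3, 14.05 and 14.9 CPM in siETV4, against 19.5, 12.5, 18.1 and 17.3 CPM in siNC (log2 fold change -0.11, 95% interval -0.45 to 0.23), and the siNC libraries enclosed the siETV4 range. CGN stood at 29.4, 29.9, 29.6 and 35.4 CPM in siETV4, against 38.3, 31.7, 31.8 and 34.7 CPM in siNC (log2 fold change -0.14, 95% interval -0.39 to 0.12). For CGN, siETV4 replicates 1 to 3 lay below every siNC library and siETV4 replicate 4 lay between the siNC values. The CLDN7 span meets ELP5 and the TJP3 span meets APBA3, both counted, so reads of these overlaps cannot be assigned with certainty.

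Which libraries held the high values of a member went in part with its GC content. The longest transcripts of CLDN12, OCLN, CLDN1 and TJP1 had 38.1 to 44.8% GC, and those of CGN, CLDN4, CLDN7 and TJP3 had 56.1 to 63.2%. For each of the 4 genes with the lower GC content, siNC replicate 4 was the highest siNC library. In log2 CPM around the gene mean it stood at 0.58 for CLDN12, 0.28 for OCLN, 0.06 for CLDN1 and 0.43 for TJP1, while the other siNC libraries stood between -0.62 and 0.01. Among the 4 genes with the higher GC content, siNC replicate 4 ranged from -0.19 to 0.10. Its 0.10 for both CGN and TJP3 lay above its 0.06 for CLDN1, so the split was not clean. F11R, between these sets at 47.6% GC, had siNC replicate 4 as its lowest siNC library, at -0.096.

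**Figure D2:**
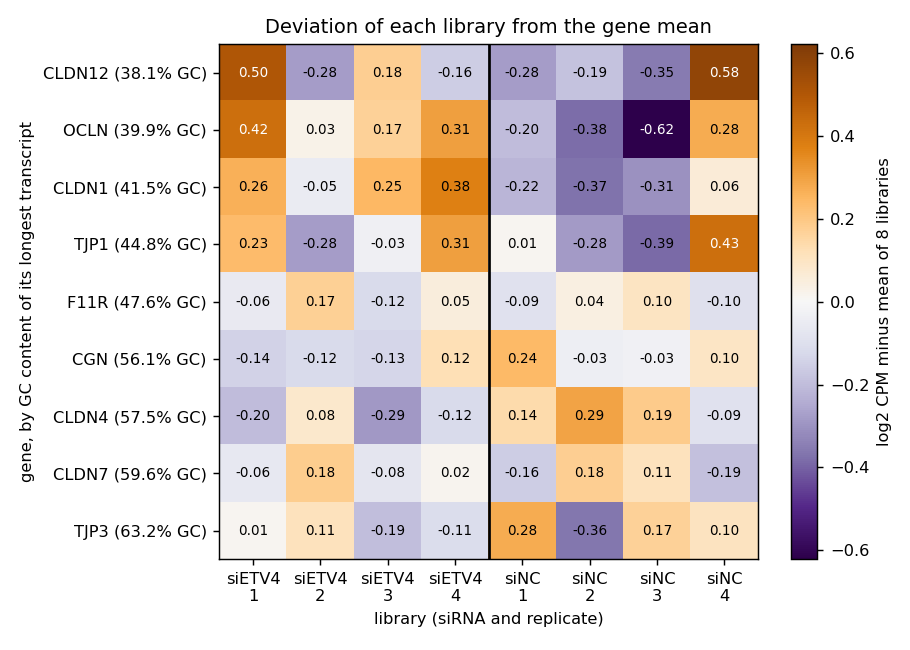
Each cell gives the log2 CPM of a gene in a library minus that gene's mean over the 8 libraries, with genes from low (top) to high GC content and siETV4 libraries left of siNC libraries. In the top 4 rows siNC replicate 4 is above the mean while siNC replicates 2 and 3 are below it.

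Leaving out siNC replicate 4 changed the calls. With the other 7 libraries, 3 of the 9 members passed the edgeR threshold, where 16.9% of all tested genes did, with 12% higher and 4.88% lower. In these libraries CLDN1 (log2 fold change 0.51, SE 0.10, edgeR adjusted p 0.0113) and OCLN (0.63, SE 0.14, edgeR adjusted p 0.0161) were higher in siETV4. CLDN4 was lower (-0.33, SE 0.10, edgeR adjusted p 0.0343). At an unadjusted p under 0.05 there were 4 of the 9, CLDN12 being the fourth, against 35% of all tested genes. CLDN12 (0.37, SE 0.17) and TJP1 (0.28, SE 0.14) did not pass after adjustment (edgeR adjusted p 0.142 and 0.160). CLDN7 stood at -0.03 and TJP3 at -0.10. For CLDN1, OCLN and CLDN4, siNC replicate 4 was the siNC library nearest to siETV4, so leaving it out widens their differences by construction. These p-values are therefore no separate evidence. Leaving out any other single library gave no call among the 9. With each library's trend over GC content and gene length also taken out, CLDN1, OCLN and CLDN4 had edgeR adjusted p values of 0.246, 0.248 and 0.218.

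With the trend of each library over GC content and gene length taken out of all 8 libraries, CLDN1, OCLN and CLDN4 kept their directions at smaller differences. CLDN1 averaged 371 ± 53.2 adjusted CPM in siETV4 and 320 ± 18.3 in siNC (SD, n = 4 each). Its log2 fold change was 0.22 (SE 0.09, edgeR adjusted p 0.255). OCLN averaged 18.0 ± 1.98 adjusted CPM in siETV4 and 15.2 ± 1.21 in siNC (log2 fold change 0.24, SE 0.10, edgeR adjusted p 0.280). CLDN4 had 134, 137, 125 and 136 adjusted CPM in siETV4, against 145, 151, 140 and 151 in siNC, so its groups no longer overlapped, at a log2 fold change of -0.14 (SE 0.06, edgeR adjusted p 0.231). CLDN7 showed groups apart only on this scale, at 695, 679, 680 and 700 adjusted CPM in siETV4 against 545, 654, 618 and 664 in siNC (log2 fold change 0.15, SE 0.06, edgeR adjusted p 0.265). These 2 of 9 members, 1 higher and 1 lower, stand beside 9.97% of all genes whose groups did not overlap on this scale, 5.21% higher and 4.76% lower. None of the 9 passed the threshold, where 1.75% of genes did, and 4 members (CLDN1, OCLN, CLDN7 and CLDN4) had an unadjusted p under 0.05, against 15.9% of genes. CLDN12 stood at a log2 fold change of -0.13 (SE 0.10), TJP1 at 0.03 (SE 0.10) and TJP3 at 0.03 (SE 0.14) on this scale, so the uncalled values of CLDN12 and TJP3 turned sign.

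**Figure D3:**
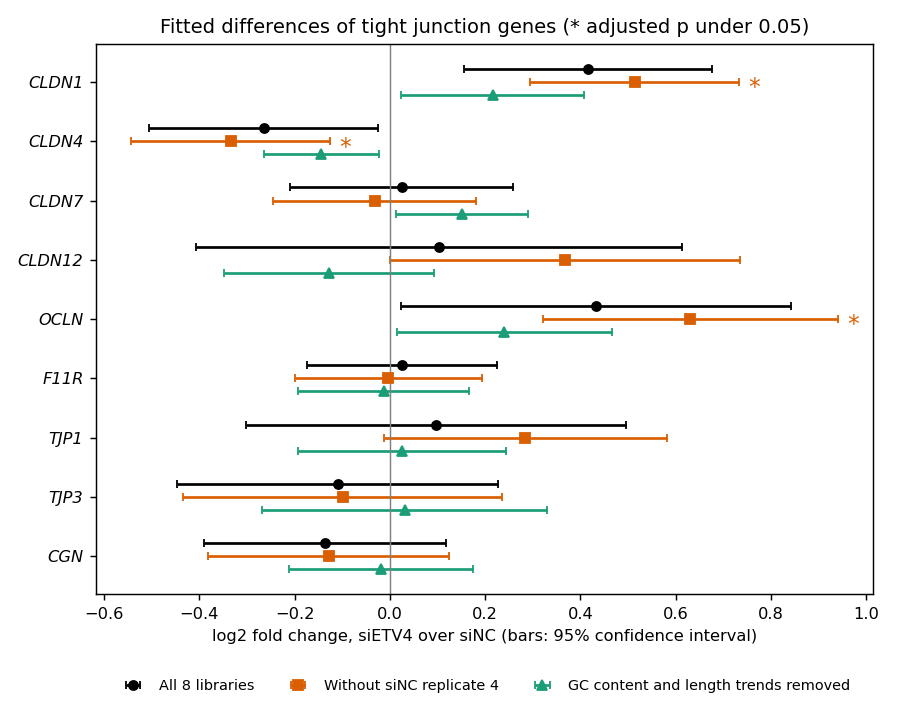
Points are edgeR log2 fold changes (siETV4 over siNC, x axis) of the 9 genes with 95% confidence intervals, from all 8 libraries, without siNC replicate 4, and after removal of each library's trends over GC content and length. The asterisks fall on CLDN1, OCLN and CLDN4 without siNC replicate 4, the siNC library nearest to siETV4 for these genes. Without those trends these genes lie at 0.22, 0.24 and -0.14.

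A further comparison used ratios within a library, which do not move with its scaling. The FPKM of CLDN4 over that of CLDN1 was 0.599, 0.906, 0.572 and 0.587 in siETV4, against 1.06, 1.31, 1.16 and 0.747 in siNC. CLDN4 was thus below CLDN1 in every siETV4 library and above it in the siNC libraries other than replicate 4. The difference of mean log2 ratios was -0.68, with an exact two-sided permutation p of 0.0571 (adjusted p 0.0857 over 3 ratios). The FPKM of OCLN over that of TJP1 was 0.289, 0.313, 0.290 and 0.253 in siETV4, against 0.218, 0.237, 0.215 and 0.228 in siNC. On this scale the groups did not overlap, siNC replicate 4 included. The difference of mean log2 ratios was 0.35, higher in 4 of 4 siETV4 libraries than in any siNC library, with an exact two-sided permutation p of 0.0286, the smallest that 4 against 4 allows, and an adjusted p of 0.0857. The FPKM of TJP3 over that of TJP1 overlapped, at 0.359 to 0.627 in siETV4 and 0.383 to 0.707 in siNC (exact two-sided permutation p 0.429, adjusted p 0.429). After the trends over GC content and gene length were taken out, an alternative chosen after seeing the data, the OCLN over TJP1 ratio of adjusted CPM overlapped, at 0.179 to 0.214 in siETV4 and 0.144 to 0.185 in siNC. Its log2 difference was then 0.21 (exact two-sided permutation p 0.0571, adjusted p 0.0857). The CLDN4 over CLDN1 ratio then no longer overlapped, at 0.301 to 0.406 in siETV4 and 0.422 to 0.501 in siNC, at a smaller log2 difference of -0.35 (exact two-sided permutation p 0.0286, adjusted p 0.0857). Which of these 2 ratios had groups apart thus depended on the scale, and neither passed after adjustment on either scale. A ratio that alone reaches the smallest possible p has an adjusted p of 0.0857 over 3 ratios and cannot pass. The missing calls therefore do not decide whether these ratios differed.

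The claudin transcripts were also set against each other as shares of the summed FPKM of 24 claudin genes, which totalled 602 to 643 FPKM in siETV4 and 541 to 621 FPKM in siNC. CLDN7 made up 67.4 ± 2.38% of the sum in siETV4 and 68.5 ± 3.09% in siNC (SD, n = 4 each). CLDN1 made up 20.2, 14.7, 20.3 and 20.6% in siETV4, against 15.6, 11.9, 12.95 and 18.9% in siNC. CLDN4 made up 12.1, 13.3, 11.6 and 12.1% in siETV4, against 16.5, 15.6, 15.1 and 14.1% in siNC, and its groups did not overlap. The shares of CLDN7, CLDN1 and CLDN12 did overlap. So did the FPKM of CLDN4 itself, at 70.2 to 85.7 in siETV4 and 79.3 to 96.9 in siNC. The sum that the shares divide by also differed between libraries, and no share over all genes can stand beside this scale. CLDN12 made up 0.745 to 1.41% in siETV4, against 0.742 to 1.603% in siNC. All other claudins together made up 0.277 to 0.395% in siETV4, against 0.318 to 0.395% in siNC. These shares depend on each other and were not tested.

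**Figure D4:**
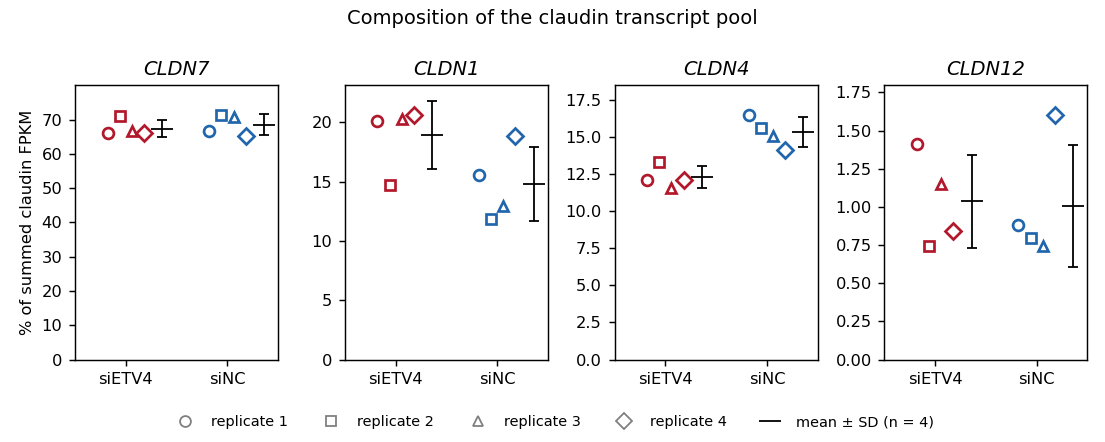
Shares of 4 claudins in the summed claudin FPKM of each library (y axis, percent, from 0), for siETV4 left and siNC right, with the replicate number as marker shape and the mean ± SD beside the points. The CLDN4 shares of siETV4, 11.6 to 13.3%, lie below those of siNC, 14.1 to 16.5%, while the other panels overlap, as does the FPKM of CLDN4 itself.

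Beyond the 9 members, 64 other genes of tight junctions and their neighbourhood were listed by role, and 41 of them had enough counts to be tested. None of the 41 passed the edgeR threshold, where 0.236% of all tested genes did, with 22 positive and 19 negative log2 fold changes and a median of 0.02, and 3 had an unadjusted p under 0.05 (CLDN16, ARHGEF18 and SYMPK), against 12.6% of all tested genes, a larger share than among the 41. Of 19 other claudins 3 were tested. CLDN15 stood at a log2 fold change of -0.10 (SE 0.20) and CLDN23 at -0.25 (SE 0.36). CLDN16, the neighbour of CLDN1, averaged 0.878 CPM in siETV4, against 0.479 CPM in siNC, without overlap (log2 fold change 0.86, SE 0.35, edgeR adjusted p 0.372). Of all tested genes, 6.55% had groups that did not overlap. CLDN16 had at most 41 counts in a library and was named after its values were seen. CLDN3 and CLDN5, claudins of gut and endothelium, had at most 4 and 0 counts.

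Among the tricellular and MARVEL genes, LSR, which recruits tricellulin to the corners where cells meet, had a log2 fold change of 0.08 (SE 0.11) and MARVELD2, the tricellulin gene, of 0.08 (SE 0.12). CXADR, an adhesion protein and virus receptor, was the single tested member of the immunoglobulin list (log2 fold change 0.06, SE 0.25), and JAM3 had at most 10 counts in a library. Of the other plaque genes, YBX3, the gene of the ZO-1 partner ZONAB, stood at 412 CPM in siETV4 against 453 in siNC, a log2 fold change of -0.14 (SE 0.08). Its log2 fold change was -0.40 (SE 0.16, edgeR adjusted p 0.239) with the trends over GC content and length taken out, and -0.55 (SE 0.11, edgeR adjusted p 0.00826) with siNC replicate 4 also left out, a fit in which 6.39% of all tested genes passed. The polarity genes CRB3 and PARD3 stood at log2 fold changes of -0.01 (SE 0.14) and 0.04 (SE 0.09).

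Among the regulators, ST14, the gene of the membrane protease matriptase, which acts on the barrier of epithelia, had a log2 fold change of 0.02 (SE 0.10). The transcription factors GRHL2 and OVOL2, regulators of epithelial junction genes, stood at 0.02 (SE 0.11) and -0.17 (SE 0.13). ARHGEF18, a RhoA activator found at tight junctions and named after its values were seen, had groups that did not overlap, with means of 108 CPM in siETV4, against 134 in siNC (log2 fold change -0.30, SE 0.09, edgeR adjusted p 0.243). Only ARHGEF18 and CLDN16 of the 41 had groups apart, a smaller share than the 6.55% of all tested genes. Without siNC replicate 4, 3 of the 41 passed, where 16.9% of all tested genes did (12% higher and 4.88% lower), a larger share than among the 41. PATJ, a scaffold of the Crumbs polarity complex, was higher (log2 fold change 0.65, edgeR adjusted p 0.0115), and SYMPK, a scaffold of messenger RNA 3′ end processing also found at junctions (-0.35, edgeR adjusted p 0.0263) and ARHGEF18 (-0.32, edgeR adjusted p 0.0305) were lower. With the trends over GC content and length taken out of all 8 libraries 0 of the 41 passed. LSR came nearest (log2 fold change 0.23, edgeR adjusted p 0.0501), and ARHGEF18 stood at -0.13 (SE 0.06), SYMPK at -0.16 (SE 0.06) and PATJ at 0.28 (SE 0.12).

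**Figure D5:**
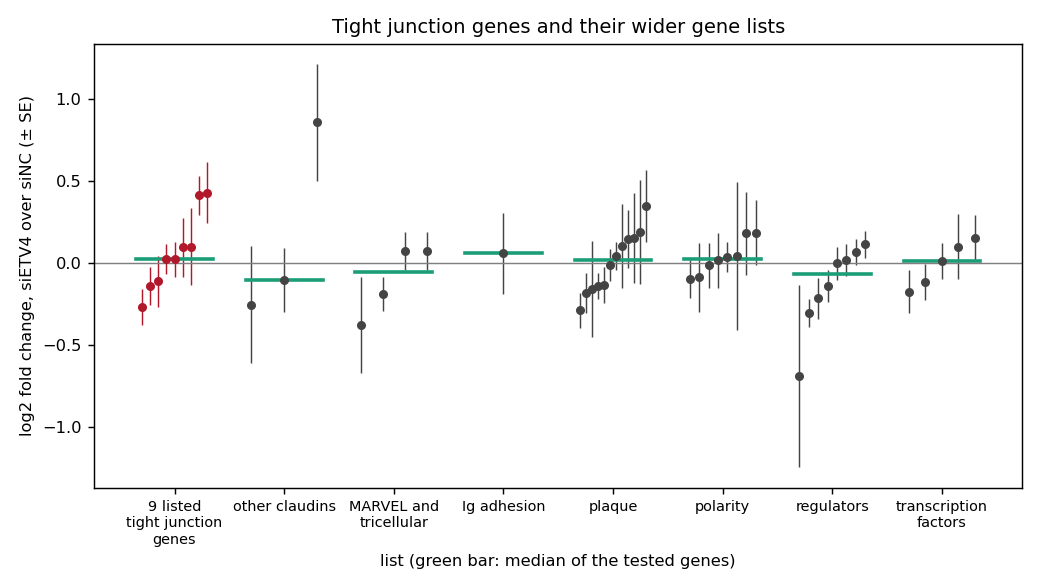
Log2 fold changes (siETV4 over siNC, y axis, ± SE) of the 9 tight junction genes and of the 41 other tested genes by role (x axis), with the median of each list as a green bar. The medians lie between -0.10 and 0.06, and no point passed the threshold.

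Over the 8 libraries, the tested genes with a log2 CPM of at least 3 whose profile lay nearest to that of CLDN1 were LACTB, NKRF and NFE2L3, by the root mean square difference of centred log2 CPM (0.07, 0.07 and 0.08, against a median of 0.33 over 9181 genes). Their log2 fold changes were 0.41, 0.31 and 0.39, and none passed the edgeR threshold (adjusted p 0.307, 0.397 and 0.280). Since they were picked for likeness to CLDN1 over these same libraries, fold changes near that of CLDN1 follow from the choice. Among the other members OCLN lay nearest to CLDN1 (0.15), followed by TJP1 (0.21), and CLDN4 farthest (0.45).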

How the data were processed

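Bulk RNA-seq profiles (total RNA, per the labels) of 8 HaCaT cultures, 4 siETV4 and 4 siNC, were compared, with groups and replicate numbers as the titles give them. The authors deposited raw read counts per gene symbol and FPKM values for the same 34415 symbols and 8 libraries. The submitters' processing notes list the build hg38 and the software R 3.2.0. Aligner, counter, annotation and strandedness: not given in the sources used here. Each deposited FPKM equals the count over the library's total and a gene length, which was the same in all libraries for 20584 of 20585 genes above 0 (relative tolerance 1e-06).

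Counts were filtered by filterByExpr (minimum count 10), scaled by TMM and tested in R 4.3.3 with edgeR 4.0.16 (quasi-likelihood test, siRNA as the only term, Benjamini-Hochberg adjustment over 13572 genes, threshold 0.05). Intervals are 95% intervals of that fit. FPKM was used to compare levels between genes. Ratios were tested by exact permutation over libraries in scipy 1.17.1.

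The alternatives changed the scaling (RLE factors or library size only), the filter (none, or 1 CPM in at least 4 libraries) or the tool (DESeq2 1.42.0, limma-voom in limma 3.58.1, limma-trend on log2 of FPKM plus 1 or 0.1), blocked by replicate number, or left out each library in turn. In a further alternative, spline offsets (5 degrees of freedom) took out each library's trend over GC content (longest GENCODE v29 transcript) and the gene length that the FPKM imply. Both values were found for 12765 tested genes. Positions and promoters come from RefSeq tables of GRCh38.p14, in which 32094 symbols were found. The fits were checked on simulated counts without library trends over GC content or length, so that check does not cover such trends. No library repeated another within sampling noise.

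The members and lists were chosen with earlier results of these data known. Named genes are the 9 members, ETV4, from each other list up to 4 members past the threshold or its 2 most abundant by FPKM, and the 3 genes nearest to the member with the smallest p. CLDN3, CLDN5, CLDN16, ARHGEF18, PATJ and SYMPK were named after their values were seen. Some genes that the rule picks are not reported here. Intervals and p-values of the edgeR fits set a difference against the spread between these cultures and their libraries, estimated with information shared over genes. Where they were not taken out, the trends over GC content and length are part of that spread.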

Additional observations from a re-analysis of the deposited data

Results flagged for a closer look

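Of 34 sets of 4 libraries examined (CPM of the 9 genes and ETV4, the 3 ratios and 4 claudin shares, in each group), 6 had a library whose gap to the next exceeded the 95% critical value of Dixon's test, which chance alone does in about 1 of 20 sets. The sets share libraries and genes.

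siETV4 replicate 2 stood apart in 3 of them. Its log2 ratio of CLDN4 over CLDN1 FPKM was -0.14, against -0.81 to -0.74 in the other siETV4 libraries. CLDN1 made up 14.7% of its claudin FPKM, against 20.2 to 20.6% in the other siETV4 libraries, and CLDN7 made up 70.9%. Its correlation of deviations with GC content across genes was 0.20, against -0.64 to 0.02 in the other siETV4 libraries, and the part of this in the result was not tested.

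siNC replicate 4 stood apart in 2. CLDN12 stood there at 31.2 CPM, against 16.3 to 18.3 CPM in the other siNC libraries, and at 1.603% of claudin FPKM. After removal of the trends over GC content and length, CLDN12 was at 24.5 adjusted CPM in that library and at 20.2 to 22.2 in the other siNC libraries.

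siETV4 replicate 4 had 35.4 CPM of CGN, against 29.4 to 29.9 CPM in the other siETV4 libraries.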

How the results depend on the processing

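None of the 9 genes passed under any alternative with all 8 libraries. Leaving out 1 library gave 0 to 3 calls among the 9 and 0 to 3 among the 41 other genes, the 3 in each case without siNC replicate 4. With that library left out and the trends over GC content and length removed, 0 of the 9 and 4 of the 41 passed, where 6.39% of all genes did, LSR and PATJ (higher) and YBX3 (lower) among them. Over all genes 32 passed, against 223 with DESeq2, 54 without a filter, 59 with either pseudocount on log2 FPKM, 4 with the replicate number as a block, 223 with the trends removed, 100 with the trends removed and the replicate block, 825 with the trends removed and siNC replicate 4 left out, and 9 to 2327 with 1 library left out. Same-numbered deviations correlated at -0.09, 0.30, -0.14 and -0.19, and only siETV4 replicate 2 was most like the siNC library of its number. These values do not settle whether the numbers pair the cultures, and the block called none of the 9. With 1 library left out, the exact permutation adjusted p of the CLDN4 over CLDN1 and OCLN over TJP1 ratios was 0.0857 to 0.171, and with the block no p below 0.125 is possible. Leaving out 1 library also leaves too few arrangements for a p under 0.05, so no ratio could pass in these settings. With the trends removed the log2 difference of the TJP3 over TJP1 ratio was 0.024, against -0.21, and neither passed. CLDN1, OCLN and CLDN4 kept their direction under all 21 alternatives, at log2 fold changes of 0.19 to 0.51, 0.24 to 0.63 and -0.34 to -0.13. The median of the 9 lay between -0.03 and 0.10.

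Uncalled values near 0 changed sign, and the cause was not tested. With the trends removed, with the replicate block added to that, and with the trends removed and siNC replicate 4 left out, in that order, CLDN12 stood at -0.13, -0.13 and -0.067, F11R at -0.013, -0.015 and -0.058, TJP3 at 0.031, 0.050 and 0.13, CLDN15 at 0.037, 0.036 and 0.040, CRB3 at 0.12, 0.12 and 0.12, CXADR at -0.11, -0.10 and -0.061, and MARVELD2 at -0.088, -0.092 and -0.15. CGN stood at 0.025 in the last. CRB3 stood at 0.0034 with DESeq2, 0.0033 with RLE factors, 0.034 with library size alone, 0.037 with log2(FPKM + 0.1) and 0.035 with log2(FPKM + 1), filtered or not. With 1 library left out, CLDN7 ranged from -0.034 to 0.092, CLDN12 from -0.064 to 0.37, F11R from -0.031 to 0.067, TJP1 from -0.0071 to 0.28, CLDN23 from -0.43 to 0.037, LSR from -0.018 to 0.14, MARVELD2 from -0.0032 to 0.12, CXADR from -0.098 to 0.35, CRB3 from -0.10 to 0.071, ST14 from -0.050 to 0.059 and GRHL2 from -0.048 to 0.080.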
